A study of Homo sapiens with 4 samples.

Results

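The genes described here encode the subunits of the mitochondrial respiratory chain and ATP synthase that are carried in the nuclear genome, read in RNA from extracellular vesicles (EVs) of PC3 cells. They were chosen by a rule on gene symbols, as protein-coding genes of GENCODE named NDUFA, NDUFB, NDUFC, NDUFS, NDUFV or NDUFAB1, SDHA to SDHD, UQCR, COX4 to COX8 or ATP5, which uses no measured value, although the rule was set with earlier results of these data known. Of 19629 protein-coding genes matched in the count files, 90 met this rule, or 0.459%. PC3 is an established prostate cancer line derived from a bone metastasis, and the study asked which RNAs its vesicles carry towards bone cells. EVs were isolated from the medium of untreated PC3 cells on qEV size exclusion columns, to which the study's methods add an exoEasy membrane kit, RNA was extracted with a miRNeasy kit, and TruSeq stranded libraries were sequenced from 2 biological replicates. The titles of both total RNA libraries carry the same label, EX1, and differ in the replicate number, while the count files named in their descriptions are numbered EX1 and EX2, so n = 2 below rests on the replicate numbers and the study's account of biological replicates. Both libraries belong to the same single condition, with no added allele or agent, and RNA of the PC3 cells or of other vesicles was not analysed here, so no value below separates RNA sorted into vesicles from RNA that was abundant in the cell. The vesicles were defined by this isolation and by size, which does not remove other carriers of RNA in the medium, and fewer vesicles with a transcript cannot be told apart from less of it per vesicle.

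Oxidative phosphorylation is carried out by protein complexes in the inner mitochondrial membrane. Complex I (NADH dehydrogenase) and complex II (succinate dehydrogenase) pass electrons to ubiquinone, complex III (cytochrome bc1) passes them to cytochrome c, complex IV (cytochrome c oxidase) reduces oxygen, and complex V (ATP synthase) uses the resulting proton gradient to make ATP. All but complex II combine subunits from both genomes. The mitochondrial DNA encodes a small set of membrane subunits that are translated inside the organelle, whereas the nuclear subunits are translated in the cytosol and imported, so their messengers are cytosolic.

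The authors' gene counts summed to 489170 reads in replicate 1 and 475942 in replicate 2, which were 2.50% and 2.16% of all records in the files. Reads with more than 1 alignment took 45.5% and 48.1%, and reads assigned to no counted feature 36.3% and 35.4%. The latter need not lie outside genes. Levels are given as reads and as CPM, reads per 1000000 reads counted on genes, and levels of different genes are compared only as CPM per kilobase of annotated exon. A single read was worth 2.04 CPM in replicate 1 and 2.10 CPM in replicate 2. A count of 0 allows up to 3 reads, or 0.000613% and 0.000630% of the gene reads. These floors and the Wilson intervals below cover counting error only, since amplified reads are not independent molecules. They do not cover reads that may be lost through the strand setting of the counting, which is not given in the sources used here. Among markers of the line, the keratin gene KRT8 had 966 and 1088 reads, KRT18 had 94 and 87, VIM had 130 and 87 and CD44 had 72 and 44 in replicates 1 and 2. EPCAM had 2 and 26 reads. KLK3, which PC3 cells lack, had 0 in both. ALB, a liver gene, and HBA1, HBB and PTPRC, genes of blood cells, had 0 reads, and the fibroblast gene COL1A1 had 35 and 1.

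Nuclear respiratory factor 1 (NRF1) and the ETS factor GABP are transcription factors known for binding promoters of nuclear respiratory chain genes. RefSeq promoter windows, 250 bases before to 50 bases after the start of transcription on GRCh38.p14, were found for 71 of the 90 genes. The 9-base core of the NRF1 site, GCGCATGCG or CGCATGCGC on the opposite strand, which overlap each other because the site is nearly palindromic, was present in 10 of these 71 windows, or 14.1%, and in 2.10% of all 27305 windows of the table. The GABP core CCGGAAGT, or ACTTCCGG on the opposite strand, was present in 10 windows, or 14.1%, against 4.44% of all windows. Among the 27 windows of genes with a read in both replicates, 6 held the NRF1 core and 4 the GABP core. These matches describe letters and not binding. The windows of ATP5PF and ATP5F1C, of ATP synthase, and NDUFS6, of complex I, are printed 5′ to 3′ as examples of genes that hold the NRF1 core and had reads in both replicates, with the match in capitals. They lie at chr21:25735005-25735304 on the minus strand, chr10:7787927-7788226 on the plus strand and chr5:1801157-1801456 on the plus strand.
ATP5PF: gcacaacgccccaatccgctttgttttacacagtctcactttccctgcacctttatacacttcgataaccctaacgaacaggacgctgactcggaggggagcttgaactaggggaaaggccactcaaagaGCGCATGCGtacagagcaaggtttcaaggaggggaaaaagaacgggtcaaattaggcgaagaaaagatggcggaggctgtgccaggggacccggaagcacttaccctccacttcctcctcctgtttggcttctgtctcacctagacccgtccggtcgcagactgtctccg
ATP5F1C: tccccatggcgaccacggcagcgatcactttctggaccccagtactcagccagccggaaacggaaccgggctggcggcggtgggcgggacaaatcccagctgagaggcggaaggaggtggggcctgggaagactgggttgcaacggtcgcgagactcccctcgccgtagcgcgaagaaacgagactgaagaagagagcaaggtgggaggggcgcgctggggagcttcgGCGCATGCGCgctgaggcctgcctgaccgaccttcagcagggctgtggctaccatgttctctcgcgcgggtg
NDUFS6: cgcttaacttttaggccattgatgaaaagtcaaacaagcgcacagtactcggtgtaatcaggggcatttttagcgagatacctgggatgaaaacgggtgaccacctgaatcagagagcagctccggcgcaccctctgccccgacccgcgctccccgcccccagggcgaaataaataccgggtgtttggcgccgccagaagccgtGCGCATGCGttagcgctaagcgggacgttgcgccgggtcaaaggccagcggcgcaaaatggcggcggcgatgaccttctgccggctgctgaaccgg

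At least 1 read in both replicates was found for 29 of the 90 genes, or 32.2%, where the same held for 21.9% of all protein-coding genes. A further 14 genes had reads in replicate 1 only, 13 in replicate 2 only, and 34 had no read. Of all 19629 protein-coding genes, 1553 had reads in replicate 1 only, 2438 in replicate 2 only, and 11333 had none. A read in either replicate was found for 56, or 62.2%, against 42.3% of all protein-coding genes, and at least 10 reads in both for 9, or 10.0%, against 11.6%. The shares with any read lay above the background, and the share with 10 or more reads in both replicates lay near it. Their exons were shorter, with a median of 2377 bases against 4471 bases for all protein-coding genes. Together the 90 genes took 701 reads in replicate 1, or 0.143% of gene reads (95% Wilson interval 0.133 to 0.154%), and 815 in replicate 2, or 0.171% (0.160 to 0.183%), a mean of 1573 CPM ± 198 (SD, n = 2). The intervals of the replicates do not overlap. As a share of the reads on nuclear protein-coding genes this was 0.297% and 0.378%, below the 0.459% of genes that they are. These shares of reads are not scaled for exon length. The median level of the 90 genes was 1.51 CPM per kilobase, against 0 for all protein-coding genes.

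**Figure D1:**
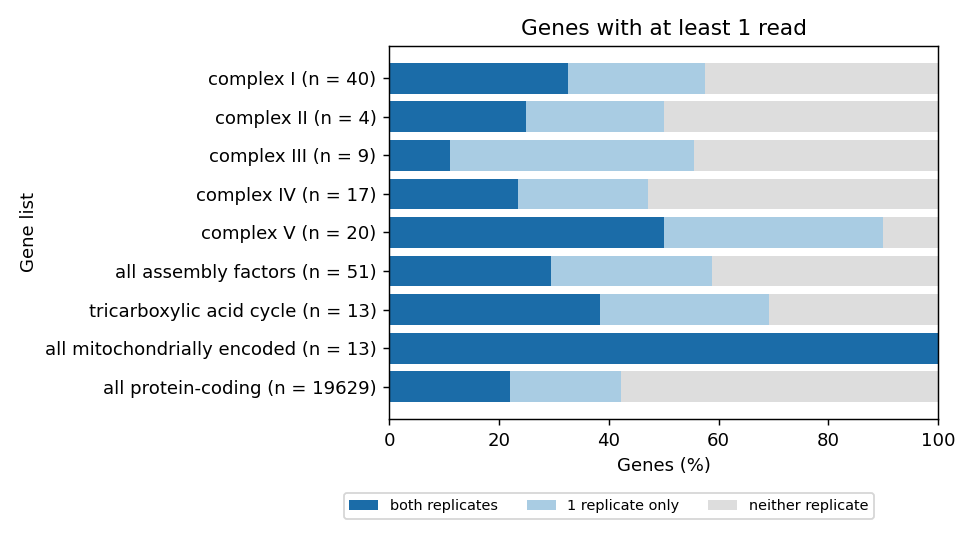
Percent of the genes of each list (horizontal axis) with at least 1 read in both replicates (dark blue), in 1 replicate only (light blue) or in neither (grey), with the number of genes n beside each list name. Complex V has the longest dark bar of the nuclear complexes at 50.0% and complex III the shortest at 11.1%, while all 13 mitochondrially encoded genes are dark throughout.

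Complex I, the largest of the chain, had 40 genes and took 394 and 443 reads, a summed level of 868 CPM ± 88.6 (SD, n = 2). Reads in both replicates were found for 13 of its genes, in 1 replicate for 10 and in neither for 17. The highest count of any nuclear subunit was that of NDUFB11 (ENSG00000147123, chrX:47142071-47145466 on GRCh38, minus strand), an accessory subunit of the membrane arm whose mutation is known to cause an X-linked mitochondrial disease. It had 154 reads in replicate 1 and 161 in replicate 2, or 327 CPM ± 16.6 (SD, n = 2), and ranked 123 among all protein-coding genes by mean CPM. NDUFB11 alone held 22.0% and 19.8% of the reads of the 90 genes. NDUFB10, a membrane arm subunit on chromosome 16, had 38 reads in each replicate, or 78.8 CPM ± 1.53 (SD, n = 2). RPS2, a ribosomal protein gene that starts 82 bases away on the opposite strand, had 1151 and 948 reads. NDUFA1, a small X-linked subunit needed for assembly, had 71 and 24 reads. Per kilobase of annotated exon NDUFA1 was the highest nuclear subunit, at 232 CPM per kilobase ± 159 (SD, n = 2). NDUFB11 followed at 96.2 ± 4.88 and NDUFB10 at 75.7 ± 1.47 on the same scale. NDUFB11 has 3396 annotated exon bases but a canonical transcript of 586 bases, while NDUFA1 has 421 on both. The order of these 2 genes thus depends on the length used. On annotated exon NDUFA1 lay above NDUFB11 in both replicates, at 345 and 120 CPM per kilobase against 92.7 and 99.6. The gap of their means was less than the SD of NDUFA1, whereas NDUFB11 and NDUFB10 differed by more than either SD.

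The 7 core subunits of complex I in the nuclear genome form the peripheral arm that takes electrons from NADH along flavin and iron-sulphur clusters. They summed to 43 reads in replicate 1 and 87 in replicate 2, and 3 of the 7 had reads in both. NDUFS8, an iron-sulphur subunit, had 36 and 10 reads, and NDUFV1, which binds the flavin and NADH, had 5 and 30. These differences point in opposite directions, and each exceeded counting error (exact binomial test over all protein-coding genes, adjusted p = 0.000462 and 4.28e-05). NDUFS3 had 2 and 13 reads. NDUFS7, which carries the last iron-sulphur cluster before ubiquinone, had 0 and 24. NDUFS1, the largest subunit of the arm, and NDUFV2 had no read in either replicate. NDUFS3 and NDUFS7 also passed the test for a difference between replicates, and NDUFS3 did not with counts halved (exact binomial test, adjusted p = 0.0729).

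Accessory subunits of complex I, 33 genes, held 351 and 356 reads, with 10 in both replicates. Besides the leading genes NDUFB7 had 6 and 25 reads, NDUFA2 had 4 and 14, NDUFS6 had 6 and 10, NDUFA8 had 4 and 8, and NDUFB3 had 2 and 10. The largest counts confined to a single replicate in the complex were those of NDUFA5 with 0 and 30 reads and NDUFB4 with 26 and 0. NDUFC1 had 0 and 24 reads and NDUFV3 22 and 0. NDUFA4, which is grouped here by its symbol although the protein is now assigned to complex IV, had 0 and 4. The remaining genes with reads were NDUFA10 with 8 and 0, NDUFA13 with 4 and 3, NDUFB8 with 4 and 2, NDUFB2 with 0 and 3 and NDUFS5 with 2 and 0. NDUFAB1, the mitochondrial acyl carrier protein, had no read, and neither had NDUFA3, NDUFA4L2, NDUFA6, NDUFA7, NDUFA9, NDUFA11, NDUFA12, NDUFB1, NDUFB5, NDUFB6, NDUFB9, NDUFC2, the readthrough gene NDUFC2-KCTD14 and NDUFS4.

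Complex II, the succinate dehydrogenase shared with the tricarboxylic acid cycle, is encoded wholly in the nucleus by 4 genes and took 52 and 18 reads, or 72.1 CPM ± 48.4 (SD, n = 2). SDHB, its iron-sulphur subunit (ENSG00000117118, chr1:17018664-17054032), had 39 reads in replicate 1 and 18 in replicate 2, or 24.0 CPM per kilobase ± 12.1 (SD, n = 2), the only SDH gene with reads in both. SDHA, the flavoprotein with the active site for succinate, had 13 and 0 reads. The membrane anchors SDHC and SDHD had none. SDHC and SDHD carry near copies elsewhere in the genome, given below, so their 0 is less certain than a plain 0.

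Complex III had the fewest reads, 18 and 10 over 9 genes, or 28.9 CPM ± 11.2 (SD, n = 2). The core proteins UQCRC1 and UQCRC2 had 12 and 4 reads in replicate 1 and 0 in replicate 2, and UQCRFS1, the Rieske iron-sulphur protein that hands electrons to cytochrome c1, had none. The 3 core genes thus held 16 reads in replicate 1 and 0 in replicate 2. UQCRB had 0 and 6 reads and UQCRQ 0 and 2. UQCRH, the acidic hinge protein, was the single gene of the complex with a read in both, at 2 reads in each replicate, which is under the floor of 3. Cytochrome c1, the partner of these proteins encoded by CYC1 and not part of the 90, had 20 and 0 reads, and cytochrome c, encoded by CYCS, had 0 and 2. No nuclear gene of this step of the chain had more than 3 reads in both replicates. UQCR10 and UQCR11 had no read.

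The coding sequence of UQCRH at chr1:46303698-46316776 on the plus strand is shown with that of UQCRHL, a second coding gene of the 90 at chr1:15807169-15809348 on the minus strand, because a read from either could fit both. Each is 276 bases long from start to stop codon, 4 bases differ and are in capitals, the identity is 98.6%, and the longest identical run is 157 bases.
UQCRH: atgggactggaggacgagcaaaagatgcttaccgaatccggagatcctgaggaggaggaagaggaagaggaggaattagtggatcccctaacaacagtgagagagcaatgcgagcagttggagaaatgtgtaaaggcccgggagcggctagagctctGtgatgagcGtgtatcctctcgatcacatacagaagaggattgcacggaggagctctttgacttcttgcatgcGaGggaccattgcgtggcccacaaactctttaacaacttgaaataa
UQCRHL: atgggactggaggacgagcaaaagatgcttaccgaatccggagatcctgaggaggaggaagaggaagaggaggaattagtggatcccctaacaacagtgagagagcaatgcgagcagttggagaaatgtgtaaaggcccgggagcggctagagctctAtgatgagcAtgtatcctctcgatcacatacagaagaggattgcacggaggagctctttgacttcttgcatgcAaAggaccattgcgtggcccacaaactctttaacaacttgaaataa
UQCRHL had 0 reads in both replicates. A read inside an identical run can align to both genes, and reads with more than 1 alignment were set aside in these files, so the 2 reads of UQCRH in each replicate and the 0 of UQCRHL may leave out reads that the pair shares.

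Complex IV had 17 genes and took 30 and 106 reads, or 142 CPM ± 114 (SD, n = 2), with most reads in replicate 2. The largest part came from COX4I1 (ENSG00000131143, chr16:85798633-85807068), the common isoform of the regulatory subunit IV, with 8 reads in replicate 1 and 56 in replicate 2, a 7.19-fold difference in CPM (exact binomial test, adjusted p = 3.88e-09) and 13.9 CPM per kilobase ± 14.9 (SD, n = 2). COX5B had 10 and 4 reads, COX7B 2 and 8 and COX7C 2 and 2. Several subunits of this complex exist as tissue isoforms. The lung isoform COX4I2 had 0 reads, so all reads of subunit IV were counted on the common form. COX4I2 has 669 exon bases against 4816 for COX4I1, and a count of 0 allows up to 3 reads, so the 0 does not show its absence. For subunit VIa the common form COX6A1 had 0 and 12 reads and the muscle and heart form COX6A2 had none. For subunit VIb the order differed, as the common form COX6B1 had 8 and 0 reads and the testis form COX6B2 had 0 and 16. COX7A1 and COX7A2 had no read, and COX7A2L, a related protein that joins complexes III and IV, had 0 and 8. COX7B2, COX8A and COX8C had none, nor had COX5A and COX6C. Of the 13 isoform genes 2 had reads in both replicates, so the isoform of most subunits could not be read from these counts.

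Complex V, ATP synthase, had the highest share of genes with reads in both replicates, 10 of 20, and took 207 and 238 reads, or 462 CPM ± 54.4 (SD, n = 2). The peripheral stalk, which holds the catalytic head against rotation, took 58 and 151 reads over 4 genes. Its subunit b, ATP5PB (ENSG00000116459, chr1:111448864-111462773), had 39 and 83 reads, or 40.5 CPM per kilobase ± 21.3 (SD, n = 2), a 2.19-fold difference in CPM (exact binomial test, adjusted p = 0.000129). ATP5PF, coupling factor 6, had 18 and 34 reads, or 26.9 CPM per kilobase ± 12.2 (SD, n = 2). ATP5PD, subunit d, had 1 and 34, and ATP5PO, the stalk's cap on the head, had none. The 3 stalk genes that were read were all higher in replicate 2.

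The F1 head and central stalk took 73 and 46 reads over 5 genes. ATP5F1B, the catalytic beta subunit, had 23 and 6 reads, and ATP5F1C, the rotating gamma subunit, had 24 and 4, both higher in replicate 1 (exact binomial test, adjusted p = 0.00452 and 0.000511). ATP5F1D, the delta subunit, went the other way with 9 and 24, or 15.3 CPM per kilobase ± 10.1 (SD, n = 2). ATP5F1A, the alpha subunit that alternates with beta in the head, had 0 and 12 reads, and ATP5F1E 17 and 0. Alpha and beta, which are present in equal number in the enzyme, thus differed between the replicates in opposite directions. ATP5IF1, the inhibitor that blocks ATP hydrolysis, had 16 and 14 reads. The c ring is encoded by 3 genes that give the same mature protein. ATP5MC2 had 13 and 18 reads, ATP5MC1 10 and 2, and ATP5MC3 8 and 0. Of the 6 accessory membrane genes only ATP5ME had reads in both, 5 and 6, and their sum was 23 and 7. ATP5MG had 10 and 0 reads, ATP5MF and ATP5MK 4 and 0 each, ATP5MJ 0 and 1, and ATP5MGL none. The readthrough gene ATP5MF-PTCD1 had 6 and 0.

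**Figure D2:**
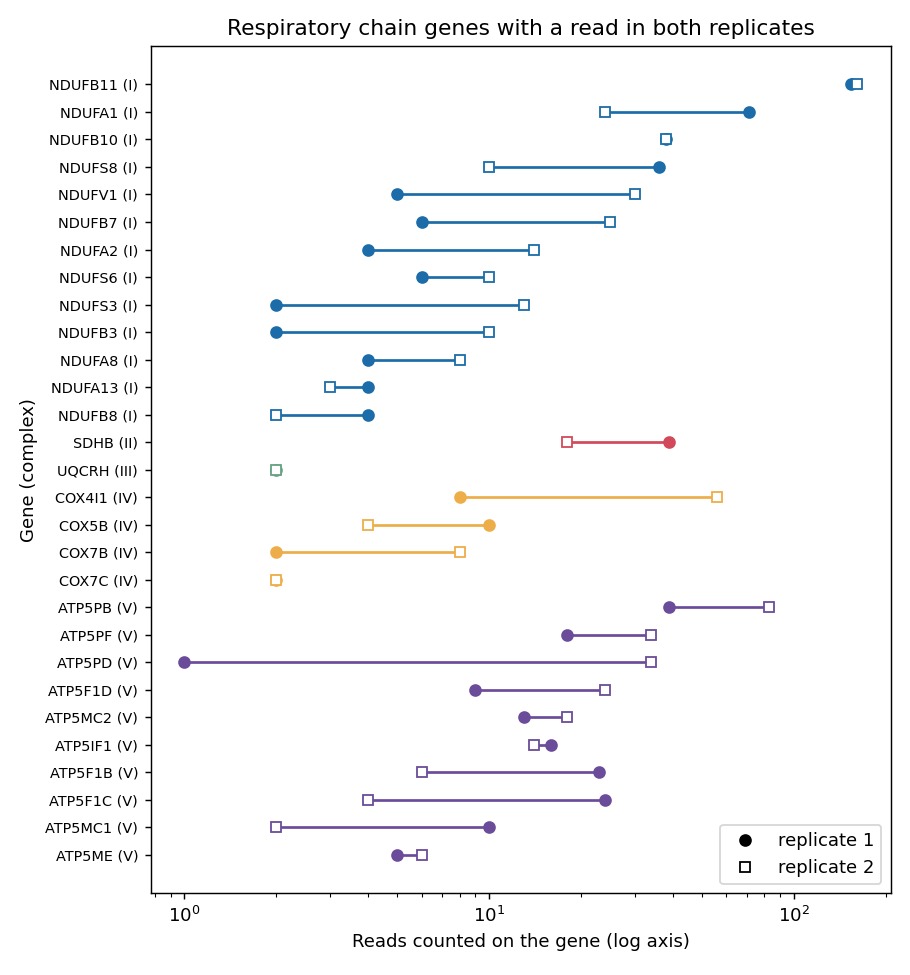
Reads counted on each of the 29 genes with a read in both replicates (horizontal log axis), for replicate 1 (filled circles) and replicate 2 (open squares), joined by a line and coloured by complex. NDUFB11 stands at 154 and 161 reads with a short line, while COX4I1 runs from 8 to 56 and ATP5PD from 1 to 34.

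The 13 protein genes of the mitochondrial DNA, the partners of the genes above in complexes I, III, IV and V, all had reads in both replicates. They took 57251 and 60528 reads, 11.7% and 12.7% of gene reads, or 122106 CPM ± 7169 (SD, n = 2), which was 81.7 and 74.3 times the summed reads of the 90 nuclear genes. Their median level was 8713 CPM per kilobase, against 1.51 for the nuclear genes and 0 for all protein-coding genes. MT-ND6, the only one of them on the light strand, was the highest per kilobase at 30041 CPM per kilobase ± 5171 (SD, n = 2), with 6776 and 8420 reads. As the strand setting of the counting is not given, RNA from the other strand may be counted on MT-ND6, so its rank is uncertain. This was not tested. MT-ND5 had the most reads, 16056 and 16173, and MT-ATP8 the fewest, 639 and 709. MT-CYB, the membrane core of complex III, had 4839 and 4755 reads where the nuclear core genes of that complex had 16 and 0. MT-CO1, the catalytic subunit of complex IV, had 4250 and 4480, and MT-ATP6, the proton channel of complex V, 2162 and 2374. Between replicates these genes differed 1.01-fold to 1.28-fold in CPM, whereas the 29 nuclear genes read in both differed by a median of 2.43-fold. Each mitochondrial gene had at least 639 reads in a replicate and no nuclear gene more than 161. No comparison at matched counts was made, so the difference in spread cannot be told apart from the difference in counts. The lowest mitochondrial level, 3906 CPM per kilobase for MT-ND2, lay above the highest nuclear level, 232 for NDUFA1. The counts do not tell RNA inside vesicles from that of other carriers.

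**Figure D3:**
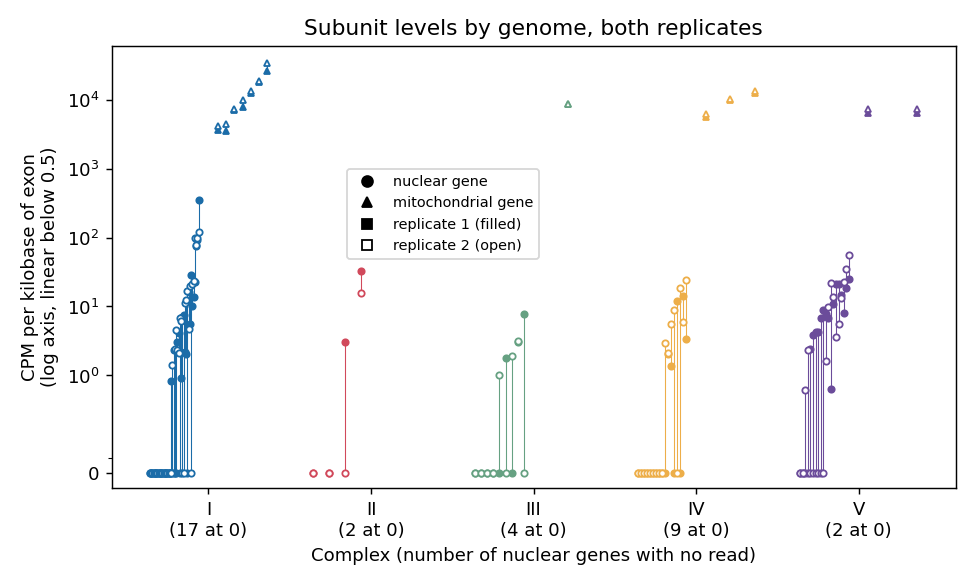
Level of each subunit gene in CPM per kilobase of exon (vertical log axis, linear below 0.5) by complex, for nuclear genes (circles) and mitochondrial genes (triangles), with replicate 1 filled, replicate 2 open and a line between them. Every mitochondrial gene lies above every nuclear gene, and many lines of nuclear genes reach 0 in 1 replicate.

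Assembly factors build the complexes without being part of them. Of 51 assembly factors listed for complexes I to V, 15 had reads in both replicates, or 29.4%. The 51 took 853 and 978 reads, or 1899 CPM ± 220 (SD, n = 2). This sum, not scaled for exon length, lay above that of the subunits in both replicates. It was 1744 against 1433 CPM in replicate 1 and 2055 against 1712 CPM in replicate 2. The gap of the means was less than the sum of the SDs, but both sums rose in replicate 2, so these SDs are not independent. Their median exon length was 3918 bases against 2377 for the subunits, and their median level 0.694 CPM per kilobase against 1.51. The reads of the assembly factors were concentrated in a few genes. UQCC2, which stabilises newly made cytochrome b, had 248 and 283 reads, NDUFAF3 of complex I 207 and 186, BCS1L, which inserts the Rieske protein into complex III, 97 and 92, and UQCC3 69 and 101. In complex III 4 of 6 assembly factors had reads in both, compared with 1 of 9 subunit genes. The exons of these genes also overlap a gene on the opposite strand with reads of its own, ITPR3 with 101 and 151 reads for UQCC2, DALRD3 with 19 and 64 for NDUFAF3, ZNF142 with 31 and 20 for BCS1L and LBHD1 with 53 and 61 for UQCC3. COA4, a complex IV factor with no such neighbour, had 34 reads in each replicate. Of 13 genes of the tricarboxylic acid cycle, which feeds the chain with NADH and succinate, 5 had reads in both and the sum was 162 and 138. Fumarase, encoded by FH, had 10 reads in each replicate.

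The replicates were compared gene by gene, which shows whether the libraries differed by more than counting error and says nothing of a condition. With at least 10 reads summed over both, 38 of the 90 genes could be tested by a two-sided exact binomial test adjusted over 5764 protein-coding genes by Benjamini-Hochberg, and 28 differed, or 73.7%, where 64.1% of all genes tested did. Of these, 11 were higher in replicate 1 and 17 in replicate 2, and 13 of the 28 had 0 reads in a replicate. The same splits over all genes tested are not given here, so they cannot be called particular to these genes. The 10 that were tested and did not pass included NDUFB11 (adjusted p = 0.610), NDUFB10 (0.934), ATP5IF1 (0.889) and ATP5MC2 (0.445). Among the 29 genes with reads in both, 18 differed more than 2-fold in CPM, or 62.1%, against 50.9% of the 4305 protein-coding genes with reads in both. Across the 56 genes with a read in either replicate, Spearman's rho between the replicates' counts was 0.0335, compared with 0.286 across 8296 protein-coding genes. Both sets leave out genes with no read and keep genes with 0 reads in a single replicate, which can lower rho. The sets were not matched for counts. Genes are not independent replicates, and these correlations are descriptions of 2 libraries.

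Low counts were mostly even numbers. Of 46 counts from 2 to 11 reads on the 90 genes, 41 were even, or 89.1%, and of 5046 such counts on all protein-coding genes 3901 were even, or 77.3%. With all counts halved, so that each pair of reads counts as 1 observation, an alternative chosen after seeing the data, 18 of the 38 genes tested differed between replicates, or 47.4%, and 42.5% of all genes tested did. SDHB, ATP5PF and ATP5F1B were among those that then no longer passed (exact binomial test, adjusted p = 0.113, 0.193 and 0.0714). The source of the even counts was not tested.

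**Figure D4:**
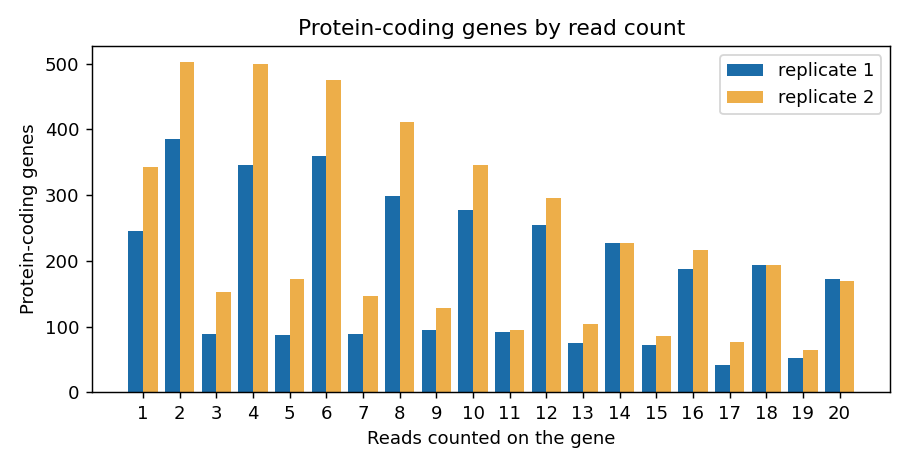
Number of protein-coding genes (vertical axis) at each low count of reads on the gene (horizontal axis), in replicate 1 (blue) and replicate 2 (orange). From 2 reads on, the bars at even counts stand above their odd neighbours in both replicates, and 77.3% of the counts from 2 to 11 reads are even.

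Exons of 30 of the 90 genes overlap exons of a gene on the opposite strand, by 4 to 1411 bases with a median of 197. The strand setting of the counting is not given in the sources used here, so reads of such a pair may be assigned to the wrong partner. The libraries were stranded, so a setting that did not match them could also leave reads of genes without an overlap uncounted. Reads assigned to no counted feature were 36.3% and 35.4% of the records, and whether any were lost in this way was not tested. Reads that fitted more than 1 gene were set aside and took 0.607% and 0.683% of the records. Of these 30 genes 11 had reads in both replicates, or 36.7%, and of the 60 others 18, or 30.0%. The same shares over all protein-coding genes were 32.4% with an overlap and 16.5% without. Where several genes overlapped on the opposite strand, the one with the most reads was taken as the opposite gene, here and for all protein-coding genes. Reads in these pairs were not scaled for exon length. The 30 genes summed to 279 and 502 reads and their opposite genes to 1262 and 1390. The opposite gene had more reads in 21 pairs, the respiratory chain gene in 5, and 4 were equal. Of the 26 pairs with at least 10 reads the opposite gene was higher in 21, or 80.8%, compared with 56.8% of 4097 such pairs over all protein-coding genes.

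Respiratory chain genes at or near 0 stood beside well-read partners. NDUFA7 had 0 reads and RPS28, a ribosomal protein gene overlapping it by 68 bases, had 254 and 167. NDUFB9 had 0 reads and TATDN1 186 and 118. ATP5ME had 5 and 6 reads and MYL5, over 571 shared bases, 169 and 310. UQCRQ had 0 and 2 reads and GDF9 78 and 56. ATP5PO had 0 reads and LINC00649 44 and 53, NDUFB8 had 4 and 2 and HIF1AN 31 and 75, UQCRB had 0 and 6 and UQCRB-AS1 50 and 53, and NDUFA4L2 had 0 and SHMT2 52 and 2. In some pairs both partners were read. ATP5PD had 1 and 34 reads and KCTD2 66 and 67, ATP5PF had 18 and 34 and GABPA, which encodes a subunit of GABP, 27 and 79, NDUFA2 had 4 and 14 and IK 71 and 27, and NDUFS3 had 2 and 13 and CELF1 22 and 10. NDUFS7 had 0 and 24 reads and the unnamed gene ENSG00000280486 55 and 15. The clearest pair in the other direction was NDUFB11 with 154 and 161 reads against 3 and 42 for RBM10 over 246 bases. COX4I1 and ATP5PB each overlap a gene, EMC8 and WDR77, with 0 reads. The part of misassigned strands in these counts was not tested.

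**Figure D5:**
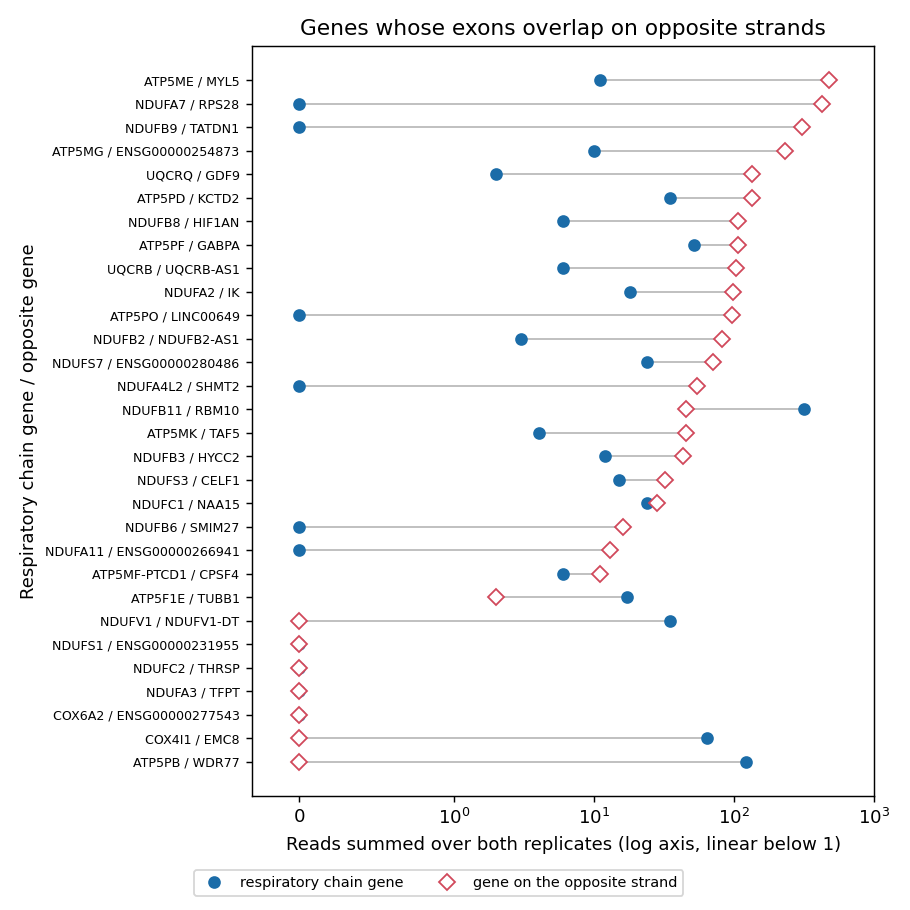
Reads summed over both replicates (horizontal log axis, linear below 1) for each of the 30 respiratory chain genes whose exons overlap a gene on the opposite strand (blue circles) and for the overlapping gene with the most reads (open red diamonds). The diamond lies to the right in 21 pairs and the circle in 5, among them NDUFB11, COX4I1 and ATP5PB.

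Respiratory chain genes are known for many processed pseudogenes, and reads with more than 1 alignment were not counted on genes. GENCODE names 189 pseudogenes for 50 of the 90 genes, and together they had 6 reads in replicate 1 and 23 in replicate 2. Each gene's canonical transcript was split into all windows of 75 bases, and these were searched in the genome sequence, where a window that spans introns of a spliced copy is not found. The share of windows that also occur elsewhere was 47.9% for COX6A1, 45.9% for SDHC, 31.2% for SDHD, 22.5% for UQCRH, 21.6% for NDUFV2 and 16.8% for UQCRFS1. These 6 were the genes with at least 10% of windows found elsewhere. Of them 1 was among the 29 genes read in both replicates, 1 among the 27 read in a single replicate and 4 among the 34 with no read. For the other 30 genes with no read, fewer than 10% of windows were found elsewhere, NDUFS1, ATP5PO and COX8A among them. An exact match counts only identical copies, and copies with mismatches were not counted.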

How the data were processed

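Total RNA of PC3 EVs was sequenced in 2 biological replicates. The authors deposited raw counts of reads for each Ensembl gene, made with HTSeq on GRCh38 per the submitters' processing notes and not normalised. The study's methods name Cutadapt, SHRiMP and SAMtools for trimming, mapping and counting without saying which were used for the total RNA. The annotation release, strand setting and versions are not given in the sources used here. Files were assigned to replicates through the sample descriptions and the replicate numbers in the titles. The small RNA counts that the authors deposited were not used here.

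Gene types, symbols, exon lengths and overlaps came from GENCODE release 44. Of 58051 identifiers 56948 matched and 1103 did not. Of the listed assembly factors SCO2 was not matched and has no value. Counts were scaled to CPM of the gene reads, 489170 and 475942, and the records HTSeq set aside stayed out of these totals. Shares carry 95% Wilson intervals. Replicates were compared by a two-sided exact binomial test with Benjamini-Hochberg adjustment at 0.05. Named genes were, for each complex, the 3 highest per kilobase with reads in both replicates, the 2 highest with reads in 1 only, core subunits, isoforms and genes below an opposite-strand partner, and other members named after their values were seen. Values of some single genes that this rule and the marker list cover are not reported here. The members and lists were chosen with earlier results of these data known. Alternatives were other detection limits, rankings and scalings, omission of overlapping or readthrough genes, and leaving out each replicate. TMM and DESeq2 size factors came from edgeR 4.0.16 and DESeq2 1.42.0 in R 4.3.3. Tests ran in scipy 1.17.1 and tables in numpy 2.4.6 and pandas 2.3.3 under Python 3.11.15, and matplotlib 3.10.9 drew the plots.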

Additional observations from a re-analysis of the deposited data

How the results depend on the processing

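The number of genes with reads in both replicates was 29. It was 56 with a read in either replicate, 16 with at least 10 CPM in both, 9 with at least 10 reads in both and 18 without genes that overlap another on the opposite strand, and 42 to 43 when each replicate was left out in turn, which leaves a single library to pass. At least 3 reads in both gave 21, and leaving out readthrough genes gave 29. The summed level of 1573 CPM was 2672 when scaled to protein-coding reads, 760 without genes with an opposite-strand overlap, 854 over genes with at least 10 reads in both, 1246 without NDUFB11, an alternative chosen after seeing the data, and 1433 to 1712 when each replicate was left out. TMM or DESeq2 size factors moved it to 1576. The 28 genes that differed between replicates stayed 28 in number with either scaling, were 33 with no limit on reads, and were 18 with counts halved, also chosen after seeing the data. Of the 11 leading genes 10 were shared with either other ranking. No paired analysis was possible because the total RNA libraries hold a single condition and, although the labels number the small RNA samples, both columns of their table have one name and could not be matched to these numbers.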
